A study of Homo sapiens with 18 samples.

Results

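The HOXB cluster is a run of 10 homeobox genes on chromosome 17, HOXB1, HOXB2, HOXB3, HOXB4, HOXB5, HOXB6, HOXB7, HOXB8, HOXB9 and HOXB13. These 10, of 20020 protein-coding genes in the annotation, were chosen by name. For each histone modification, a gene was represented by the listed interval with the highest mean count over 4 libraries among those overlapping 2 kb on either side of any of its transcription start sites (TSS). Chromatin was profiled by Cut&Tag, in which an antibody directs a transposase to DNA near a modification, in the KMT2A-rearranged cell line MOLM-13, which derives from human acute myeloid leukemia. Cells received DMSO or 100 nM PR-957, an inhibitor of the immunoproteasome subunit PSMB8, for 72 h per the labels, whereas a legend of the study gives a shorter time. Each of the 4 modifications was measured in 2 DMSO and 2 PR-957 libraries, 16 in all, and the question asked of the cluster is how its marks differ between the treatments.

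HOX genes encode transcription factors that give positional identity along the body axis, and their order on the chromosome follows their order of use in the embryo. In blood, several are active in stem and progenitor cells and are turned off as cells mature, and rearranged KMT2A is known to keep part of them active in leukemia, above all genes of the HOXA cluster. H3K27me3, laid down by Polycomb repressive complex 2, covers silent HOX genes in broad domains. H3K4me3 marks active promoters, H3K27ac marks active promoters and enhancers, and H3K4me1 marks mainly enhancers.

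The HOXB genes carried broad H3K27me3 in MOLM-13 and almost none of the 3 other modifications. All 10 had an H3K27me3 interval, 2 had an H3K4me3 interval, and none had an H3K27ac or H3K4me1 interval, which leaves 8 of 10 with H3K27me3 alone. That state was found at 1160 of 20020 protein-coding genes (5.79%). An interval lay in the window of 60.4% of protein-coding genes for H3K27ac, 43.5% for H3K4me1, 63.9% for H3K4me3 and 19.9% for H3K27me3. The lists hold only called intervals, so a gene without one may still carry signal below the caller's threshold.

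**Figure D1:**
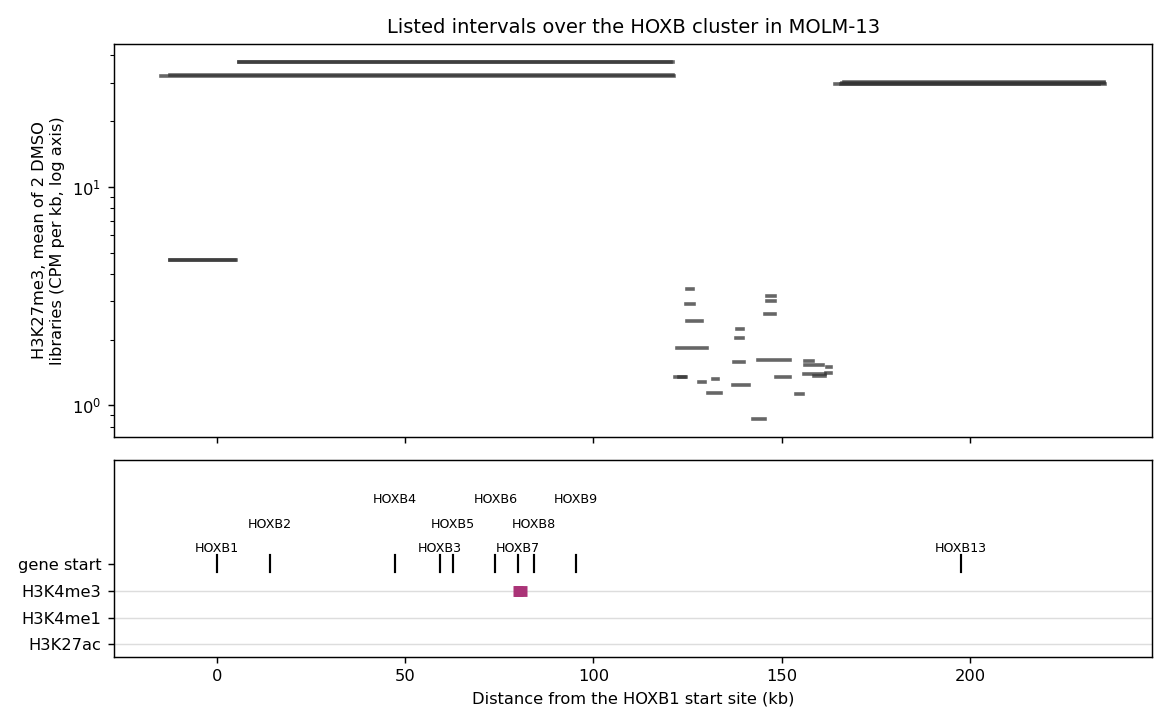
Listed intervals over the HOXB cluster plotted against distance from the HOXB1 start site in kb. The upper panel gives each H3K27me3 interval as a bar at its mean level in the 2 DMSO libraries in CPM per kb on a log axis, and the lower panel marks the canonical gene starts and the H3K4me3, H3K4me1 and H3K27ac intervals. H3K27me3 forms a domain of 136.1 kb over HOXB1 to HOXB9 and one of 70.2 kb over HOXB13, and the only other mark is H3K4me3 near HOXB7 and HOXB8.

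The members shared their intervals, so that the 10 genes stand for 2 separate H3K27me3 measurements. HOXB1 to HOXB9 were all represented by 1 interval of 136.1 kb, at chr17:48516231-48652329 of hg38, and HOXB13 by 1 of 70.2 kb at chr17:48695211-48765390. The space between them measured 42.9 kb. All members are on the minus strand, and their canonical starts lie in the order HOXB1, HOXB2, HOXB4, HOXB3, HOXB5, HOXB6, HOXB7, HOXB8, HOXB9 and HOXB13, with the HOXB9 start 95.3 kb and the HOXB13 start 197.7 kb from that of HOXB1. The wide interval also covers the antisense transcripts HOXB-AS1 to HOXB-AS4 and the microRNA genes MIR10A and MIR196A1, and the HOXB13 interval covers PRAC1, PRAC2 and MIR3185.

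HOXB1, which acts in the developing hindbrain, sat at the weak end of the wide domain. The HOXB1 promoter is shown because HOXB1 was the 1 member of 10 with an entry in the RefSeq promoter table (GRCh38.p14). HOXB2 to HOXB9 and HOXB13 have none there, so no comparison between members was made. The 250 bases before the start, at chr17:48531012-48531261 on the minus strand, read 5′ to 3′ with CpG dinucleotides in capitals.
HOXB1: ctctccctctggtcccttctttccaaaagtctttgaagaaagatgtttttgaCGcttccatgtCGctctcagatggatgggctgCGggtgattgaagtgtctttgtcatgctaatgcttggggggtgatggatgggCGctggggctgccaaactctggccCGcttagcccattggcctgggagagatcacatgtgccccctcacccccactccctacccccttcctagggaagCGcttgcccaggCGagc
This stretch held 7 CpG dinucleotides at a GC content of 57.2%, against a median of 17 CpG over the same window of 15345 protein-coding genes, 75.1% of which had at least as many.

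The wide interval reached 14.8 kb beyond the HOXB1 start, yet a pair of the 4 wide intervals listed there begin only between HOXB1 and HOXB2. The wider of that pair, chr17:48536831-48652185, begins 5.8 kb past the HOXB1 start and covers HOXB2 to HOXB9, and is called the core here. HOXB1 itself also lay in an interval of 17.4 kb, chr17:48518658-48536078. Levels are in CPM, the count of an interval scaled to the library's total by TMM, per kb of interval. The core held 37.5 and 36.9 CPM per kb under DMSO, against 30.7 and 27.8 under PR-957. The HOXB1-side interval held 4.66 and 4.57 in DMSO and 4.67 and 4.40 in PR-957. The HOXB13 interval held 30.0 and 29.3 in DMSO and 23.0 and 21.3 in PR-957. Core and HOXB13 levels were therefore higher in both DMSO libraries than in either PR-957 library, and on the HOXB1 side the treatments overlapped. The core's log2 fold change was -0.35 ± 0.041 (SE) with an edgeR adjusted p of 2.76e-12 under TMM, -0.19 with library size alone, and -0.032 with cyclic loess offsets, where the call was lost (0.522). The core was 8.05 times as dense as the HOXB1 side in DMSO, and the 7 intervals without overlap between the domains, 32.4 kb in sum, had the lowest level, 1.49 ± 0.00846 CPM per kb in DMSO and 1.43 ± 0.0190 in PR-957 (SD, n = 2).

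Both domains are among the broadest H3K27me3 regions of these cells. When overlapping intervals were merged into 13899 loci, the HOXB1 to HOXB9 domain ranked 3 by width, 3 by mean count and 15 by DMSO level per kb. The HOXB13 domain ranked 16 by width, 12 by mean count and 18 by level per kb. With each locus taken once, they held 1.57% and 0.746% of the DMSO counts. Among the representing intervals of 3976 protein-coding genes, the interval of HOXB1 to HOXB9 stood at percentiles 98.7 and 99.0 under DMSO, against 98.7 and 98.7 under PR-957. HOXB13 stood at 98.5 and 98.5 in DMSO and at 98.0 and 97.9 in PR-957.

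H3K27me3 over HOXB1 to HOXB9 was lower in PR-957 under the TMM scaling. The shared interval had 41711 and 49245 counts under DMSO, against 39104 and 42536 under PR-957, of total counts between 10032503 and 12047958. After scaling this was 4407 and 4335 CPM in DMSO and 3621 and 3286 CPM in PR-957. Both PR-957 libraries lay below both DMSO libraries, with means of 4371 ± 51.4 and 3454 ± 237 CPM (SD, n = 2). The log2 fold change was -0.34 ± 0.040 (SE), with an adjusted p of 5.96e-12 in edgeR. This call was lost with cyclic loess offsets, which follow a trend on the count level, where the log2 fold change was -0.023 ± 0.020 and the edgeR adjusted p 0.704, and over all alternatives the adjusted p ran from 1.15e-17, in a fit with 1 PR-957 library left, to 0.704. With library size alone the log2 fold change was -0.18 ± 0.025. TMM lowered the median log2 fold change of all H3K27me3 intervals by -0.16 relative to library size, so the size of the fall is relative to that shift.

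HOXB13, a gene of the posterior body and the prostate, had 19920 and 23398 H3K27me3 counts in DMSO and 17396 and 19306 in PR-957. The scaled values were 2105 and 2060 CPM in DMSO and 1611 and 1492 CPM in PR-957. The treatments did not overlap. HOXB13 fell by 0.42 ± 0.042 (SE) on the log2 scale with an adjusted p of 2.05e-15 in edgeR. Its call was kept under every alternative tried, with edgeR or DESeq2 adjusted p from 1.35e-21 to 4.30e-06, and the log2 fold change was -0.27 with library size alone and -0.16 ± 0.024 with cyclic loess offsets.

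Counted by gene, the interval of 10 of 10 HOXB genes was called lower in PR-957 in H3K27me3, against 5.09% of 31806 tested intervals called lower and 5.92% called in either direction by edgeR. By gene, 387 of 3874 protein-coding genes with a tested interval were called lower (9.99%) and 458 in either direction (11.8%). Only 2 distinct intervals underlie that count. The median log2 fold change was -0.34 over the 10 genes and -0.38 over the 2 intervals, beside 0.016 over all tested intervals and -0.021 over the intervals representing protein-coding genes. The whole modification depends on scaling, with 262 intervals higher and 1620 lower under TMM, 1514 higher and 703 lower when library size was the only scaling, and 797 higher and 965 lower with cyclic loess offsets. With loess offsets 1 of 10 genes was called, HOXB13. The labels do not say that libraries of 1 treatment came from separate cultures, so the p-values measure the spread between these libraries only.

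**Figure D2:**
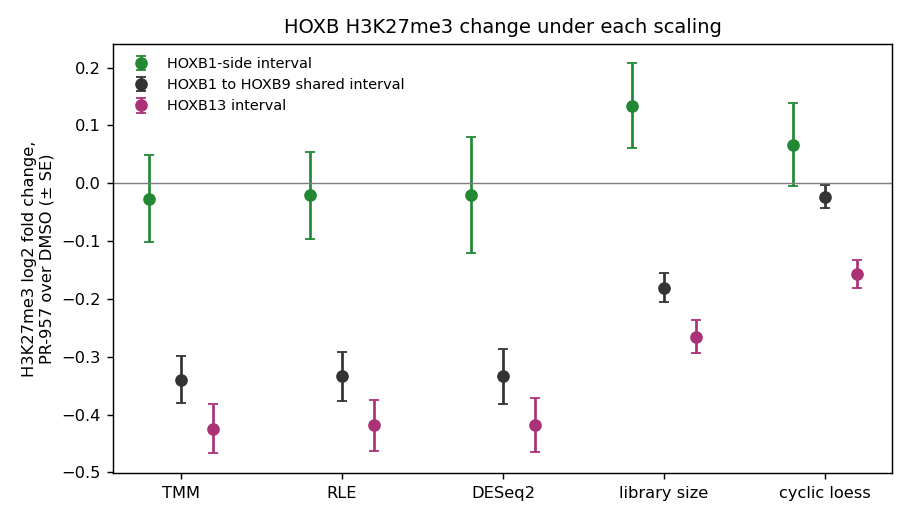
H3K27me3 log2 fold change of PR-957 over DMSO with its SE for the HOXB1-side interval, the interval shared by HOXB1 to HOXB9 and the HOXB13 interval under TMM, median-of-ratios factors (RLE), DESeq2, library size and cyclic loess. The shared interval moves from -0.34 under TMM to -0.023 under cyclic loess, HOXB13 from -0.42 to -0.16, and the HOXB1-side interval from -0.027 to 0.067.

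The HOXB1 side was not called. It had 768 and 905 counts in DMSO and 879 and 991 in PR-957, or 81.2 and 79.7 CPM in DMSO and 81.4 and 76.6 CPM in PR-957. The libraries of both treatments overlapped, and the log2 fold change was -0.027 ± 0.075 (SE) with an edgeR adjusted p of 0.921, 0.313 to 1.000 over the alternatives. Its sign followed the scaling, at 0.13 with library size alone and 0.067 with cyclic loess offsets. HOXB1 is thus called through the wide interval it shares, and not through the interval at its own start.

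Ratios of counts within a library are free of any single scaling factor per library, but not of a scaling that follows the count level, and were added after the data had been seen. The HOXB1-side interval held 1.88% and 1.87% of the core count under DMSO, against 2.30% and 2.39% under PR-957. Both PR-957 libraries were above both DMSO libraries, with a log2 difference of 0.32. The HOXB13 interval held 48.7% and 48.4% of the core count in DMSO and 45.6% and 46.5% in PR-957. Here both PR-957 libraries were below both DMSO libraries, with a log2 difference of -0.077. The two-sided exact permutation p was 0.333 for each ratio, which is the smallest that 2 against 2 libraries allow, so neither difference can pass 0.05 in this test. The core count was 53.3 times that of the HOXB1 side in DMSO, and with cyclic loess offsets the difference between the fitted log2 fold changes was 0.098 for the HOXB1 side over the core and -0.12 for HOXB13 over the core.

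**Figure D3:**
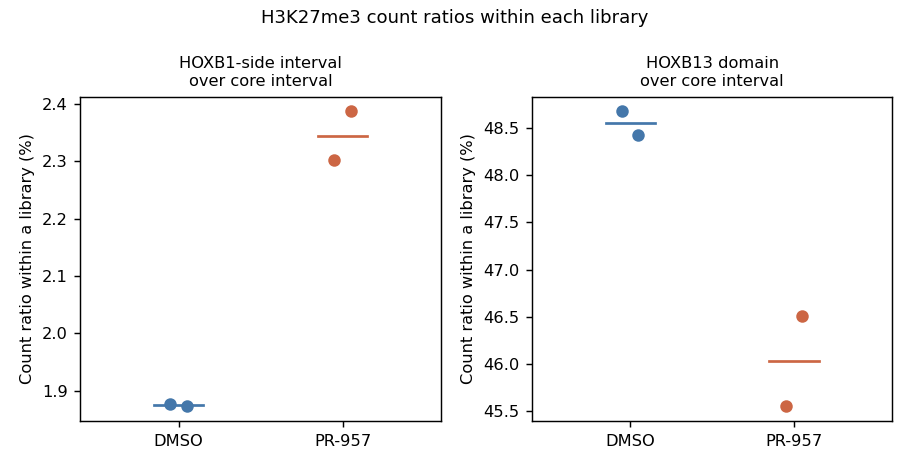
H3K27me3 count of the HOXB1-side interval (left) and of the HOXB13 interval (right) as a percentage of the core count in the same library, with axes that do not start at 0. Points are libraries and lines are means. The left ratio rises from a mean of 1.87% in DMSO to 2.34% in PR-957, and the right ratio goes from 48.6% to 46.0%.

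Over the whole locus, from HOXB1 to HOXB13 with 10 kb on either side, 36 H3K27me3 intervals in 9 loci were tested by edgeR, and 10 of them, in 3 loci, were called, each lower in PR-957, beside 5.09% of all 31806 tested intervals. They are the 4 wide intervals over HOXB2 to HOXB9, the 4 over HOXB13, and 2 overlapping weak intervals past the HOXB9 end of the wide domain, inside the noncoding gene LINC02086. The intervals of each group overlap one another, so these are 3 separate measurements. With cyclic loess offsets the 4 over HOXB2 to HOXB9 lost their call, at log2 fold changes from -0.032 to -0.023 and adjusted p from 0.518 to 0.704, and the 4 over HOXB13 alone were called. The weak interval with the smaller p, chr17:48655988-48659997, had 87 and 116 counts in DMSO and 66 and 78 in PR-957. Both PR-957 counts were below both DMSO counts, and its log2 fold change was -0.68 ± 0.22 (SE) with an edgeR adjusted p of 0.0433, 0.0337 to 0.449 over the alternatives. Neither weak interval was called with library size alone, cyclic loess offsets or DESeq2. In these settings the first was at -0.52, -0.64 and -0.67. The other, at -0.55 under TMM, was at -0.39, -0.51 and -0.54. The called locus intervals numbered 8 with the replicate number as a block and also with a mean count of at least 50.

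H3K4me3 was found within 2 kb of starts of HOXB7 and HOXB8, genes of the trunk region, as 4 overlapping intervals in 1 locus. Both were represented by chr17:48610093-48613389, which covers the canonical HOXB7 start. This interval ends before the canonical HOXB8 start, at 48615292, and meets only the 2 kb window around that start. It had 88 and 66 counts in DMSO and 74 and 85 in PR-957, of total counts between 30070119 and 44591150, or 0.597 and 0.481 CPM per kb in DMSO and 0.737 and 0.852 in PR-957. The scaled values of PR-957 lay above those of DMSO, while the raw counts overlapped. The level was at percentiles 1.75 and 1.63 of 12790 genes with an H3K4me3 interval in DMSO, and 1.94 and 5.06 in PR-957, so this is a faint mark. The log2 fold change was 0.56 ± 0.30 (SE) with an edgeR adjusted p of 0.699, 0.526 to 1.000 over the alternatives, and 0 of 2 genes were called, beside 0.226% of all tested H3K4me3 intervals. None of the 4 intervals had an unadjusted p under 0.05 in edgeR, and DESeq2 called 0.

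No H3K27ac or H3K4me1 interval was listed between the HOXB1 to HOXB13 limits, so there is nothing to test there, while 0.238% of H3K27ac and 1.94% of H3K4me1 intervals were called across the genome. Beyond the HOXB13 end, the nearest H3K27ac, H3K4me1 and H3K4me3 intervals lay 65.1, 65.0 and 64.8 kb from the domain edge, each at the promoter of CALCOCO2. Beyond the HOXB1 end, the nearest H3K27ac and H3K4me3 intervals were 401.7 and 402.3 kb away at the SNX11 promoter, and the nearest H3K4me1 interval was 273.5 kb away with no protein-coding start within 2 kb. Of 16 listed HOXB neighbours, 6 had an H3K27ac interval and 0 of these 6 were called in edgeR, with 2 at an unadjusted p under 0.05 and 0 called by DESeq2. In H3K27me3, 8 of 10 neighbours with an interval were called lower, all through the 2 domains, beside 5.09% of all tested intervals. PRAC1, PRAC2 and HOXB-AS1 have the values given for those domains. With cyclic loess offsets the neighbours sharing the wide interval, HOXB-AS1 among them, were not called. PRAC1 and PRAC2 were still called, at -0.16.

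The other HOX clusters were set beside HOXB with the same libraries, so their values are not independent of it. H3K27me3 covered 11 of 11 HOXA, 9 of 9 HOXC and 9 of 9 HOXD genes. Of them, edgeR called 9, 9 and 9 lower in PR-957, through 2, 1 and 1 distinct intervals. The share called lower was 9.99% of 3874 protein-coding genes with a tested interval and 5.09% of all tested intervals. All 9 HOXC genes share an interval of 178.1 kb with a log2 fold change of -0.32, and all 9 HOXD genes share 1 of 136.9 kb at -0.38. Of the 9 called HOXA genes, all but HOXA2 share 1 of 119.9 kb at -0.43. The wide HOXC, HOXD and HOXA intervals were at -0.16, -0.22 and -0.28 with library size alone. With cyclic loess offsets they were 0.041 for HOXC, -0.052 for HOXD and -0.13 for HOXA, of which HOXA alone was called. HOXA2, in its own interval of 6.8 kb, was at -0.61 with an adjusted p of 0.000381, which rose above 0.05 in DESeq2 (0.0553) and up to 0.106 when 1 library was left out. H3K27ac differed in presence, with an interval at 8 of 11 HOXA genes and at 0 of 10 HOXB, 0 of 9 HOXC and 0 of 9 HOXD genes. H3K4me3 lay at 9 of 11 HOXA, 2 of 10 HOXB, 3 of 9 HOXC and 2 of 9 HOXD genes. In H3K27ac, edgeR called 5 of these 8 HOXA genes lower through 1 shared interval at -0.18 with an adjusted p of 0.00825. Across protein-coding genes with a tested H3K27ac interval, 0.480% were called in either direction. The HOXA call was lost with cyclic loess offsets (-0.14, edgeR adjusted p 0.187) and in DESeq2 (-0.18, adjusted p 0.274). It was also lost in a fit with 1 library left out. In H3K4me1 edgeR called 1 of 7, HOXA13, at -0.48 with an adjusted p of 0.0424, beside 2.15% of protein-coding genes with a tested interval. The adjusted p was above 0.05 with library size alone (0.0777), cyclic loess offsets (0.0762) and DESeq2 (0.551). It ran from 0.0383 to 0.551 over all alternatives. The HOXA13 log2 fold change was -0.44 with library size alone, -0.45 with cyclic loess offsets and -0.49 in DESeq2. In H3K4me3 no gene of the other clusters was called by edgeR or DESeq2, and 7 of 9 HOXA genes had an unadjusted p under 0.05 through 1 shared interval of 50.9 kb, with an edgeR adjusted p of 0.419. Whether HOXB differs from the other clusters in its change was not tested.

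Broad H3K27me3 loci were compared after the data had been seen, and their calls depend on the scaling. Of 47 loci of at least 50 kb, edgeR called 29 lower and 0 higher, with a median log2 fold change of -0.26, beside 395 lower and 94 higher of 12358 tested loci of any width, with a median of 0.096. The log2 fold change was below that of the HOXB1 to HOXB9 domain in 15 of the 47 loci and below that of HOXB13 in 4. With library size alone 25 were called lower and 12 higher at a median of -0.10, and with cyclic loess offsets 15 lower and 16 higher at a median of 0.013.

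Partner and regulator genes of HOX proteins were counted from fixed lists. Of 11 TALE homeobox cofactors, which bind DNA together with HOX proteins, 4 had an H3K27me3 interval. Of these, edgeR called MEIS2 and PKNOX2 lower at log2 fold changes of -0.53 and -0.28, beside 9.99% of protein-coding genes with a tested interval. Of the other two, MEIS1 was at -0.25 and MEIS3 at 0.092, neither called, but MEIS3 was called higher with library size alone (0.25) and with cyclic loess offsets (0.28). In H3K27ac 1 of 7 was called, MEIS1, at -0.28, beside 0.480% of protein-coding genes with a tested interval called in either direction. Of 11 regulators, CDX2 was called in H3K27me3 at -0.27 among 2 with an interval, and KDM6B, an H3K27 demethylase, in H3K4me1 at -0.48 among 6. Across protein-coding genes with a tested interval, edgeR called 11.8% in H3K27me3 and 2.15% in H3K4me1 in either direction. Under at least 1 alternative, the adjusted p in edgeR or DESeq2 rose above 0.05 for PKNOX2, CDX2 and KDM6B, up to 0.115, 0.897 and 0.439. With library size alone and with cyclic loess offsets, PKNOX2 was at -0.12 and -0.13 and CDX2 at -0.11 and -0.014. KDM6B was at -0.43 and -0.42 in these settings and at -0.48 in DESeq2.

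Among genes that are not themselves HOX genes, those whose levels over the 16 libraries were most like the HOXB genes were EVX2 and EFNA2 for HOXB1 to HOXB6 and HOXB9, with mean absolute percentile differences of 0.104 and 0.123. These HOXB genes share 1 H3K27me3 interval, so this is 1 comparison. For HOXB1 it uses that wide interval and not the weaker one at its own start. EVX2 lies next to the HOXD cluster and is represented by the same H3K27me3 interval as the 9 HOXD genes. These means include the libraries of the 3 modifications in which none of these genes has an interval, and over the 4 H3K27me3 libraries alone they were 0.415 and 0.490. For HOXB7 and HOXB8 they were FOXF2 and FOXF1, at 0.575 and 0.714, and at 1.03 and 0.685 over the H3K27me3 libraries alone, which turns their order. For HOXB13 they were PRAC1 and PRAC2, which share its interval. The labelled cell type was checked by its markers. Of 10 myeloid markers, 9 had an H3K27ac interval, 9 an H3K4me1 interval, 8 an H3K4me3 interval and 0 an H3K27me3 interval. The shares of all protein-coding genes were 60.4%, 43.5%, 63.9% and 19.9%. In H3K27ac, 0 of 3 T cell, 0 of 3 erythroid, 2 of 3 B cell and 1 of 3 epithelial markers had an interval. In the same order, the numbers were 1, 0, 2 and 2 in H3K4me1, 0, 0, 2 and 2 in H3K4me3 and 0, 0, 1 and 2 in H3K27me3.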

How the data were processed

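Cut&Tag libraries for 4 histone modifications were read from the counts the authors deposited, whole numbers per interval without normalization, on 1 interval list per modification. The submitters' processing notes name hg38, Trimmomatic 0.39, Bowtie2 2.2.5, Picard 2.27.1, SAMtools 1.7, SEACR 1.3 and deepTools 3.5.1. The sources used here do not name the counter or how duplicates were handled. The 2 IgG samples are not analysed here. Listed intervals overlap and share fragments.

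Intervals were kept by filterByExpr (minimum count 10), scaled by TMM and tested by the quasi-likelihood method of edgeR 4.0.16 in R 4.3.3, with Benjamini-Hochberg adjustment over all intervals of a modification at 0.05. SE is the log2 fold change divided by the root of the F statistic. Starts are from GENCODE release 44, read in Python 3.11.15. Total counts per library were 9885836 to 14165777 for H3K27ac, 10032503 to 12047958 for H3K27me3, 15204186 to 30584219 for H3K4me1 and 30070119 to 44591150 for H3K4me3.

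Named were all members, up to 3 genes with the smallest p per list among those called, the 3 separate HOXB intervals with the smallest p, and the 2 genes nearest in percentile. Also named were MEIS1 and MEIS3, TALE cofactors not called in H3K27me3, and the genes at the nearest flanking intervals. Alternatives were other scalings, DESeq2 1.42.0, other filters, windows and interval choices, a replicate block, 1 interval per locus and leaving out each library. Members and lists were chosen with earlier results of these data known.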

Additional observations from a re-analysis of the deposited data

How the results depend on the processing

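For H3K27me3, the median log2 fold change of the 10 called genes was -0.34. It was below 0 under every alternative, but near 0 with cyclic loess offsets. The called genes became 1 and the median -0.023 with cyclic loess offsets, and the median was -0.18 with library size alone. Leaving out 1 library gave medians from -0.43 to -0.28 with 10 genes called each time, in fits that leave 1 arm with a single library, which is assumed to vary like the 2 libraries of the other arm. Their adjusted p for the wide interval, down to 1.15e-17, rests on that assumption. The called locus intervals, 10 in the reported setting, became 4 with cyclic loess offsets, 3 with 1 interval per locus, and 4 over the gene bodies of HOXB1 to HOXB9 alone, where fewer intervals are counted. The loci of at least 50 kb called lower, 29 in the reported setting, became 15 with cyclic loess offsets. The cause of the loess and library size values was not tested. The HOXB1-side log2 fold change turned positive with library size alone (0.13), cyclic loess offsets (0.067), a mean count of at least 50 (0.036) and without PR-957 replicate 2 (0.0094), was not called in any, and ran from -0.084 to 0.0094 when 1 library was left out. With the narrowest interval over each start, 9 genes were called, since HOXB1 dropped out. With the replicate number as a block, 10 genes were called at a median of -0.34 and 8 locus intervals. Deviations of libraries with the same number correlated at -0.0069 for H3K27me3 and 0.167 for H3K4me3. With 2 pairs each, this does not settle whether the numbers pair the libraries, which share only a number in the labels. For H3K4me3, 0 genes and 0 intervals were called under every alternative, with medians from 0.41 to 0.72. H3K27ac and H3K4me1 have no member interval and give no value. The H3K4me3 counts of the interval representing HOXB7 and HOXB8 were under 100, and whether this limits what could be detected was not tested.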
